A study of Homo sapiens with 8 samples.

Results

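The genes described here encode the protein core of the spliceosome and the SR proteins. They are the rows of an FPKM table whose symbol starts with SNRP, SF3A, SF3B, LSM and a digit, or SRSF. Of 46 matching rows, the pseudogene SNRPD2P2 was set aside and SRSF12, at 0.0343 to 0.173 FPKM, missed the requirement of 1 FPKM in 2 libraries, which leaves 44 of the 12583 genes tested and of 25906 in the table. LSM11 was the lowest member inside that limit, at 1.04 to 3.47 FPKM. The members comprise 8 Sm genes, 7 genes of the LSm rings, 4 other SNRP genes, 5 other LSM genes, 9 SF3A and SF3B genes and 11 SR genes.

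Cells of 2 established human multiple myeloma lines, MM.1S and NCI-H929, were transduced for 72 h with a lentivirus that carried CTBP2, a transcriptional corepressor, or with the empty vector. Each line and vector gave 2 libraries, which the series' design calls biological duplicates, so there are 4 CTBP2 and 4 empty vector libraries. CTBP2 reached 1621 to 5884 FPKM in the CTBP2 libraries, against 0.148 to 0.213 FPKM in the empty vector libraries, so the measurements describe ectopic overexpression in established lines.

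Line labels and line-specific genes disagreed in 2 libraries. Replicate 2 labelled NCI-H929 CTBP2 had 60.7 FPKM of CCND2 and 0.0399 FPKM of FGFR3, while replicate 2 labelled MM.1S CTBP2 had 0.0582 FPKM of CCND2 and 22.2 FPKM of FGFR3. The other MM.1S libraries had 46.7 to 115.4 FPKM of CCND2 and the other NCI-H929 libraries 13.6 to 21.7 FPKM of FGFR3. Below, a library counts as MM.1S where CCND2 exceeded 10 FPKM and as NCI-H929 where FGFR3 did, while the vector is taken from the label. Results are also given with the lines as labelled and without both of these libraries. The 7 plasma cell marker genes summed to 1141 to 2449 FPKM per library, and all 3 monocyte and all 3 fibroblast markers were under 1 FPKM in every library. Of 3 epithelial markers, which summed to 0.928 to 27.2 FPKM, KRT18 was at 13.8 to 26.3 FPKM in the 4 libraries that express NCI-H929 genes and EPCAM reached 1.27 FPKM. Of 3 erythroid markers, which summed to 0.507 to 7.94 FPKM, HBB was at 1.97 to 7.71 FPKM in the 4 libraries that express MM.1S genes and HBA1 at 1.13 to 1.54 FPKM in 3 of the others. CD3E, a T cell gene, was at 16.7 FPKM in NCI-H929 CTBP2 replicate 1 and 53.1 FPKM in replicate 2 labelled MM.1S CTBP2, while the other 2 T cell markers were under 1 FPKM everywhere, and its part in the results was not tested. Total FPKM was 459733 to 544210 in the CTBP2 libraries and 547097 to 659837 in the empty vector libraries, without overlap, and the part of this difference in the results was not tested beyond the rescalings given below.

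The spliceosome removes introns from precursor mRNA. Its small nuclear ribonucleoproteins (snRNPs) each hold a small nuclear RNA inside a ring of Sm proteins or, for U6, of LSm proteins, and the SF3A and SF3B complexes help the U2 snRNP hold the branch point. SR proteins bind exonic sequences and recruit the spliceosome to nearby splice sites. Sm proteins are loaded onto the RNA by the SMN complex, and SR proteins are controlled by phosphorylation through SRPK and CLK kinases.

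Across both lines, most members were lower after CTBP2. With line and vector in 1 limma model on log2(FPKM + 1), 27 of 44 members fell and 1, SNRPN, rose at a Benjamini-Hochberg adjusted p under 0.05, while 16 did not pass. Over all genes tested 34.1% were called, 16.7% lower and 17.4% higher. The median log2 fold change was -0.57 over the members and 0.04 over all genes, and 39 of 44 members had a negative value. In 14 members all 4 CTBP2 libraries lay below all 4 empty vector libraries, which held for 7.45% of all genes, and SNRPN alone lay above, as 7.21% of all genes did. Also, within each line 31 members lay below, against 19.9% of all genes. In bulk RNA, fewer cells with a transcript and less of it per cell cannot be told apart.

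These counts depend on how the line is assigned and how libraries are scaled. With the lines as labelled only SF3B2, SF3A3 and LSM10 were called, all lower, while 3.34% of all genes were called and 1.81% were lower. Without the 2 libraries at odds with their labels 24 members fell and none rose at adjusted p under 0.05 in limma, against 13% and 11.5% of all genes, with SNRPN at an adjusted p of 0.0573. Rescaling to equal totals without CTBP2, immunoglobulin, microRNA and snoRNA genes moved the median of all genes to 0.24, and 18 members then fell and 4 rose, with a member median of -0.31. Of all genes, 919 then fell (7.3%) and 2914 rose (23.2%), against 2101 and 2186 on the deposited scale. When each of the 8 libraries was left out in turn, 14 of the 28 called members kept their call every time, namely SNRPD1, SNRPD3, LSM2, LSM4, LSM5, LSM6, LSM10, SF3A3, SF3B2, SF3B3, SRSF1, SRSF2, SRSF3 and SRSF7. Of the others, 14 lost it without MM.1S CTBP2 replicate 1, 10 without NCI-H929 empty vector replicate 1, 9 without MM.1S empty vector replicate 2 and 8 without NCI-H929 empty vector replicate 2. Quantile normalization also left 18 members lower and 4 higher, against 15.8% and 13.8% of all genes.

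**Figure D1:**
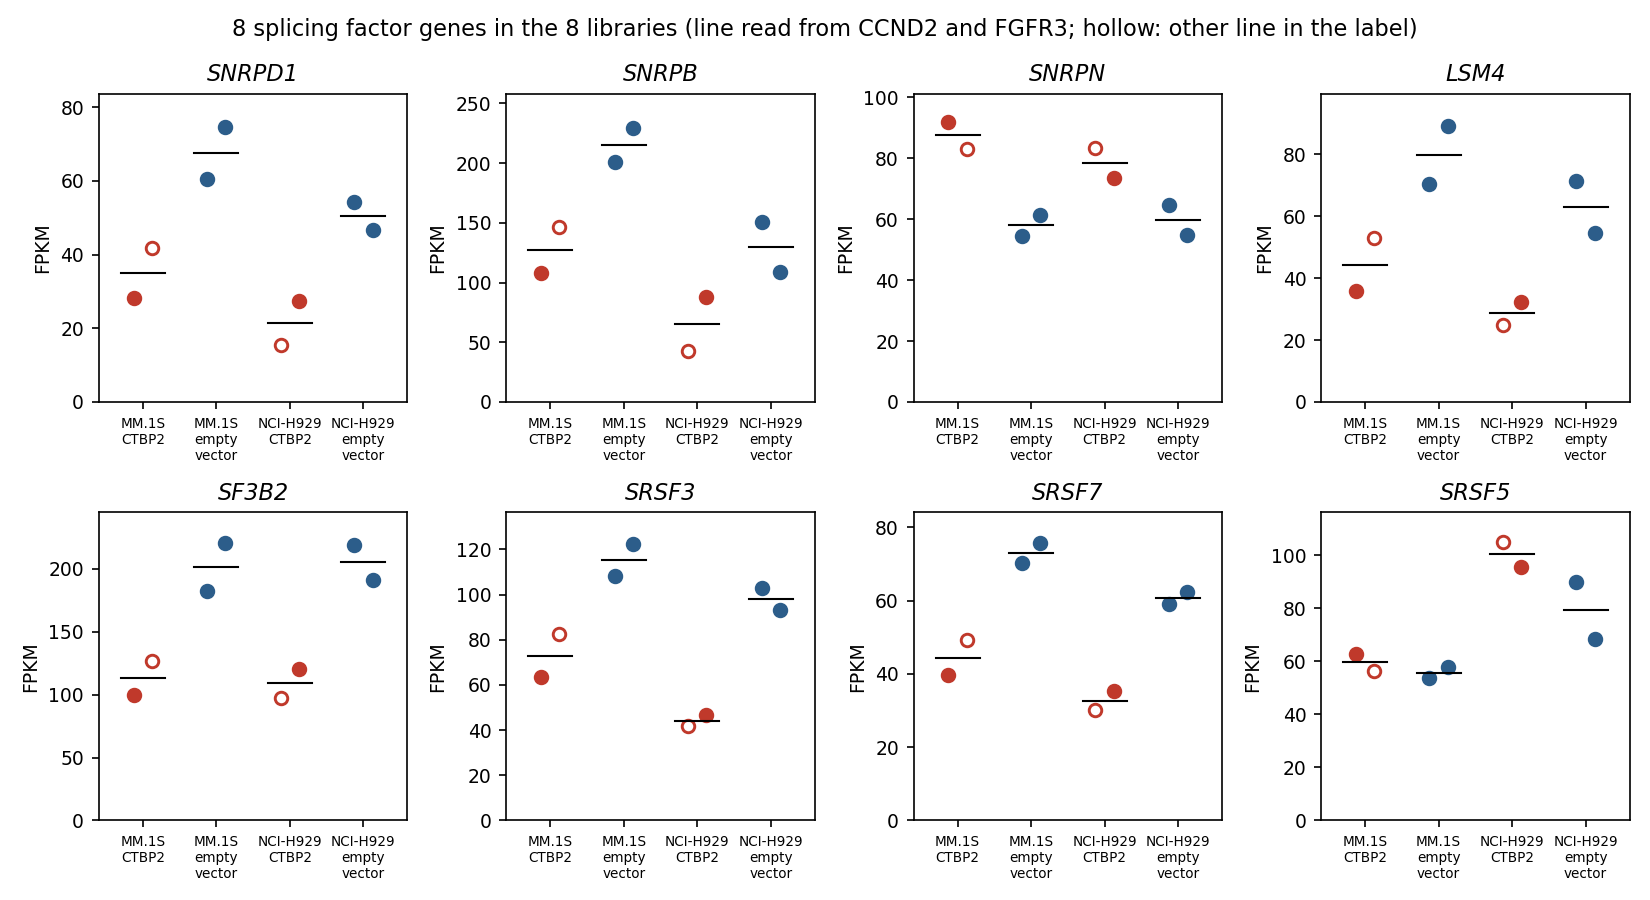
FPKM of 8 splicing genes in each library (vertical axes, linear, starting at 0), grouped by line and vector on the horizontal axis, with CTBP2 left of the empty vector, open symbols for the 2 libraries whose expression goes against the line label and a bar at the mean. SNRPD1 lies lower in every CTBP2 library (15.5 to 41.9 FPKM) than in every empty vector library (46.8 to 74.6 FPKM), and SNRPN lies higher.

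The Sm proteins form the ring around U1, U2, U4 and U5 RNA. Of 8 Sm genes, 7 fell and 1 rose, with a median log2 fold change of -0.69. SNRPD1, which encodes SmD1, was at 28.2 and, in the library labelled NCI-H929, 41.9 FPKM with CTBP2 in MM.1S, against 60.6 and 74.6 FPKM with the empty vector. In NCI-H929 it was at 27.3 and, in the library labelled MM.1S, 15.5 FPKM with CTBP2, against 54.3 and 46.8 FPKM with the empty vector. The 4 CTBP2 values lie below all empty vector values, and the log2 fold change over both lines was -1.10 (limma SE 0.20, adjusted p 0.00623).

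SNRPB, which encodes SmB and SmB', moved in the same direction with more spread. It was at 107.9 and 146.1 FPKM with CTBP2 in MM.1S, the second in the library labelled NCI-H929, against 200.6 and 229.8 FPKM with the empty vector. The NCI-H929 values were 88.2 and, in the library labelled MM.1S, 42.4 FPKM with CTBP2, against 151.0 and 108.7 FPKM with the empty vector. The groups are apart within each line but overlap across lines, and the log2 fold change was -0.91 (limma SE 0.23, adjusted p 0.0178).

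SNRPN, a close paralog of SNRPB that is imprinted and best known from brain, was the only member called higher on the deposited scale. It was at 91.9 and, in the library labelled NCI-H929, 83.1 FPKM with CTBP2 in MM.1S, against 54.6 and 61.4 FPKM with the empty vector. With CTBP2 NCI-H929 had 73.5 and, in the library labelled MM.1S, 83.5 FPKM, against 64.6 and 54.9 FPKM with the empty vector. All 4 CTBP2 values exceed all 4 empty vector values, and the log2 fold change was 0.49 (limma SE 0.12, adjusted p 0.0154). The ratio of SNRPN to SNRPB FPKM was 0.852 and 0.568 with CTBP2 in MM.1S, against 0.272 and 0.267 with the empty vector, and 0.833 and 1.97 with CTBP2 in NCI-H929, against 0.428 and 0.505 with the empty vector. Reads of these paralogs may be assigned to either gene, and with the lines as labelled the adjusted p of SNRPN was 0.0871.

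The other Sm genes called lower were SNRPF (log2 fold change -0.89), SNRPE (-0.75), SNRPD2 (-0.63), SNRPD3 (-0.62) and SNRPG (-0.60), with limma adjusted p values between 0.00623 and 0.0476. SNRPF lay lower in all 4 CTBP2 libraries, at 25.5 to 53.3 FPKM, than in the empty vector libraries, at 65.4 to 93.3 FPKM. SNRPD2 was not called after rescaling to equal totals. After quantile normalization SNRPD2, SNRPE and SNRPG were not called (limma adjusted p 0.134, 0.0668 and 0.0549). RefSeq lists 20 pseudogene copies of SNRPG, 11 of SNRPE and 4 of SNRPF, so reads of these genes may be split among copies.

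LSm proteins are relatives of the Sm proteins. LSM2 to LSM7 take part in the nuclear ring on U6 RNA, and in the cytoplasm LSM1 replaces a subunit in a ring that promotes mRNA decapping. No member row carried the symbol LSM8, so the genes measured here do not make up the whole nuclear ring. Of these 7 genes 5 fell, with a median log2 fold change of -0.70. LSM4 was at 35.8 and, in the library labelled NCI-H929, 52.8 FPKM with CTBP2 in MM.1S, against 70.3 and 89.0 FPKM with the empty vector. Its NCI-H929 values were 32.2 and, in the library labelled MM.1S, 24.95 FPKM with CTBP2, against 71.4 and 54.7 FPKM with the empty vector. The CTBP2 values again lie below all empty vector values, and the log2 fold change was -0.98 (limma SE 0.17, adjusted p 0.00557).

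LSM6 (log2 fold change -0.94), LSM2 (-0.85), LSM5 (-0.70) and LSM3 (-0.68) also fell, at limma adjusted p values of 0.00445 to 0.0162. LSM3 was not called after quantile normalization (limma adjusted p 0.0644). LSM6 averaged 12.1 ± 3.78 FPKM with CTBP2 and 24.0 ± 5.84 FPKM with the empty vector (SD, n = 4 each, both lines). LSM7 had a log2 fold change of -0.64 (adjusted p 0.0517) and LSM1, the subunit of the decapping ring, one of -0.29 (adjusted p 0.105), and neither passed.

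Among proteins that belong to 1 snRNP, SNRPA1 of U2 had a log2 fold change of -1.06 (limma SE 0.26, adjusted p 0.0160). It was at 65.5 and, in the library labelled NCI-H929, 97.9 FPKM with CTBP2 in MM.1S, against 121.5 and 145.4 FPKM with the empty vector. Among NCI-H929 libraries it was at 54.0 and, in the library labelled MM.1S, 24.6 FPKM with CTBP2, against 112.7 and 85.8 FPKM with the empty vector. The groups are apart within each line, and replicate 2 labelled NCI-H929 CTBP2 overlaps the NCI-H929 empty vector values. SNRPC (-0.70) and SNRPA (-0.58), both of U1, also fell, but neither was called after rescaling to equal totals, and RefSeq lists 20 pseudogene copies of SNRPC. SNRPB2 of U2 had a log2 fold change of -0.36 and did not pass (adjusted p 0.0516).

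LSM10 and LSM11 replace Sm subunits in the U7 snRNP, which processes histone mRNA. LSM10 fell to 28.0 and, in the library labelled NCI-H929, 37.8 FPKM in MM.1S CTBP2 cultures, against 44.5 and 56.7 FPKM with the empty vector. In NCI-H929 it was at 39.99 and, in the library labelled MM.1S, 33.7 FPKM with CTBP2, against 79.2 and 73.1 FPKM with the empty vector. Its log2 fold change was -0.82 (limma SE 0.15, adjusted p 0.00668), and the CTBP2 values did not overlap the others. LSM12 also fell (-0.52), though not after rescaling to equal totals. LSM11 (-0.37), and LSM14A (-0.11) and LSM14B (0.16), which are proteins of cytoplasmic P-bodies, did not pass on the deposited scale. LSM14B was called higher after rescaling to equal totals (limma adjusted p 0.0386), and LSM11 lower after quantile normalization (limma adjusted p 0.0126).

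Of the 9 SF3A and SF3B genes 4 fell, with a median log2 fold change of -0.44. SF3B2, a subunit of SF3B that contacts RNA near the branch site, was at 99.4 and, in the library labelled NCI-H929, 126.3 FPKM with CTBP2 in MM.1S, against 182.4 and 220.7 FPKM with the empty vector. In NCI-H929 it was at 120.5 and, in the library labelled MM.1S, 97.3 FPKM with CTBP2, against 219.1 and 191.4 FPKM with the empty vector. The groups did not overlap, with a log2 fold change of -0.87 (limma SE 0.14, adjusted p 0.00472).

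SF3A3 (-0.77, adjusted p 0.00643 in limma) fell in the same way and, like SF3B2, was called with the lines as labelled. SF3B3 (-0.50) and SF3B4 (-0.44) fell, but were not called after rescaling to equal totals. SF3B1, the branch site scaffold that is often mutated in myeloid disease, was at 63.3 to 72.7 FPKM in the CTBP2 libraries and 57.2 to 66.7 FPKM in the empty vector libraries. Its log2 fold change was 0.11 and did not pass on the deposited scale (adjusted p 0.428). Quantile normalization called SF3B1 higher (0.37, limma adjusted p 0.0456), while rescaling to equal totals did not (0.37, limma adjusted p 0.0597). SF3A2 (-0.48), SF3B5 (-0.44), SF3B14 (-0.27, current symbol SF3B6) and SF3A1 (-0.22) did not pass on the deposited scale. Deviations of same-numbered libraries of a line correlated, but a single correlation per line cannot show that they are pairs. With a block for each line and replicate number 3 of these 4, SF3A2, SF3B5 and SF3B14, passed at limma adjusted p values of 0.0193, 0.0153 and 0.0458. LSM7 (0.0151), SNRPB2 (0.0269) and LSM11 (0.0352) passed as well. With that block 7 of 9 SF3A and SF3B genes and 33 of 44 members were lower, against 20.1% of all genes.

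Of the 11 SR genes 6 fell, with a median log2 fold change of -0.39. SRSF3, which also acts in mRNA export, was at 63.7 and, in the library labelled NCI-H929, 82.4 FPKM with CTBP2 in MM.1S, against 108.1 and 122.4 FPKM with the empty vector. In NCI-H929 it was at 46.5 and, in the library labelled MM.1S, 41.7 FPKM with CTBP2, against 102.7 and 93.2 FPKM with the empty vector. SRSF3 values were lower in every CTBP2 library, with a log2 fold change of -0.90 (limma SE 0.15, adjusted p 0.00471). SRSF2 (-0.91, adjusted p 0.00697 in limma), SRSF7 (-0.79, 0.00404) and SRSF1 (-0.57, 0.00970) were likewise lower in all 4 CTBP2 libraries.

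SRSF4 (-0.44) and SRSF10 (-0.39) fell as well, and with SRSF1 they were not called after rescaling to equal totals. SRSF5 was at 56.5 to 105.0 FPKM in the CTBP2 libraries and 53.6 to 89.9 FPKM in the empty vector libraries, which overlap (log2 fold change 0.22, adjusted p 0.203). SRSF8, a retrocopy of SRSF2, had a log2 fold change of 0.31 (adjusted p 0.0681). SRSF5 and SRSF8 did not pass on the deposited scale but were called higher after rescaling to equal totals and after quantile normalization. SRSF6 (-0.10), SRSF9 (-0.27) and SRSF11 (-0.27) did not pass, and the sign of SRSF6 turned under both rescalings.

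**Figure D2:**
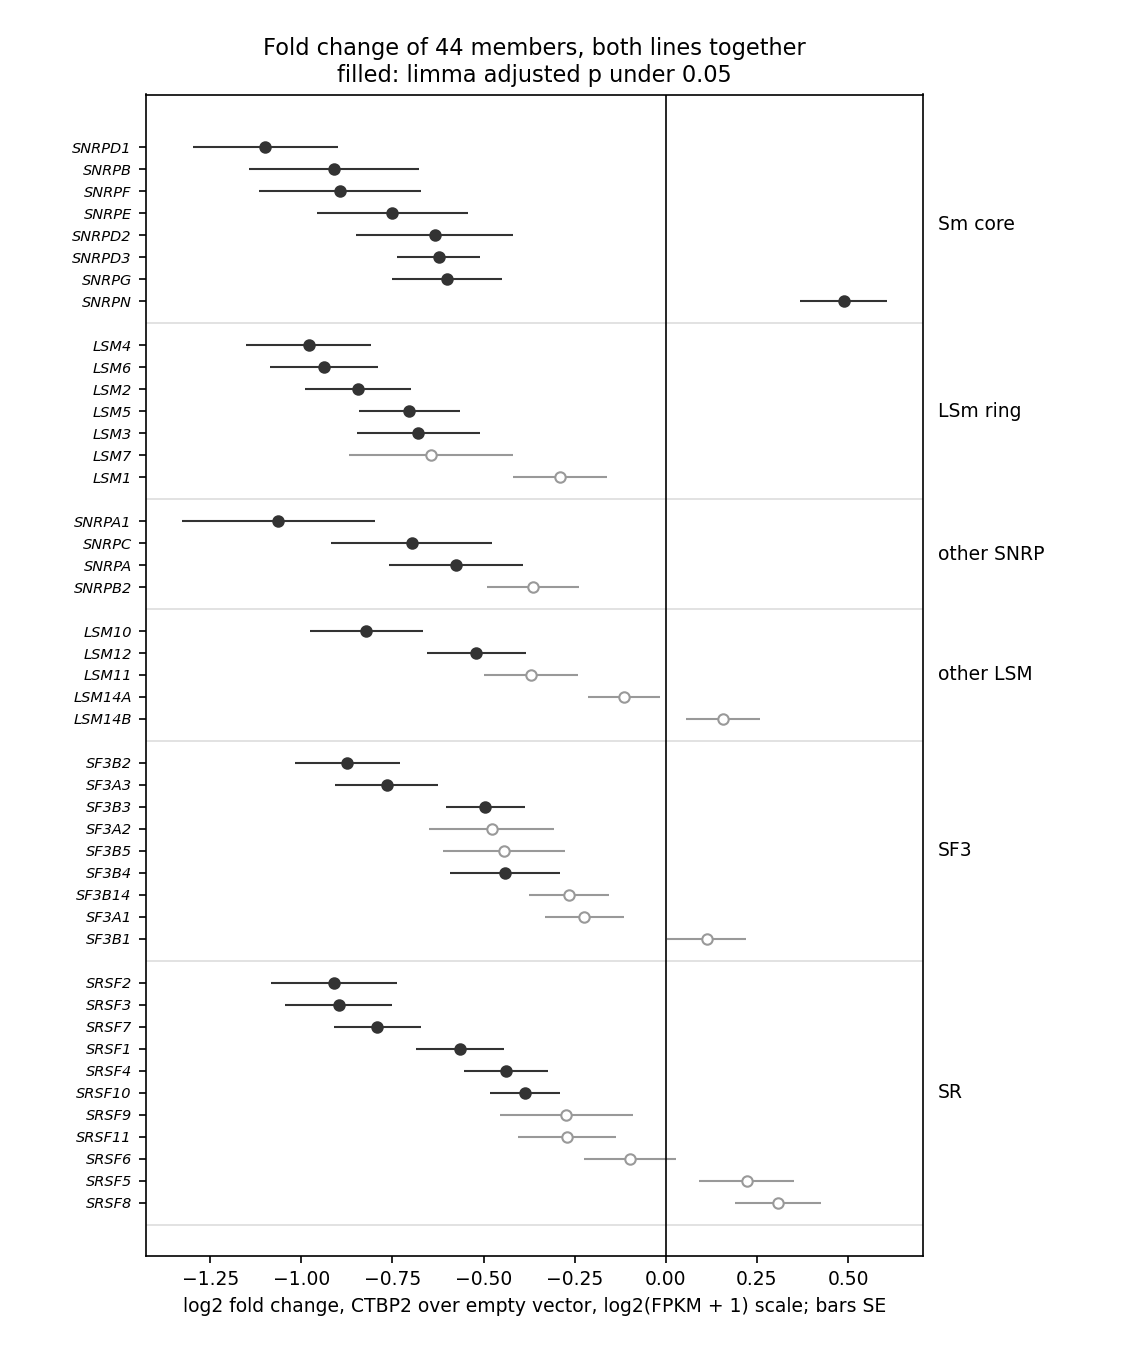
Log2 fold change of CTBP2 over empty vector for the 44 members over both lines (horizontal axis, log2 scale on FPKM + 1), ordered by class, with bars for the SE and filled points where the limma adjusted p was under 0.05. Values run from -1.10 for SNRPD1 to 0.49 for SNRPN, the only called value above 0.

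Sm and LSm ring genes were compared with SR genes as groups. Of 15 Sm and LSm genes 12 fell and of 11 SR genes 6 fell, and their median log2 fold changes of -0.70 and -0.39 differ by -0.32. No test of this class difference was made. In single libraries, the median log2(FPKM + 1) level of Sm and LSm genes minus that of SR genes was -0.13 and, in the library labelled NCI-H929, 0.11 with CTBP2 in MM.1S, against 0.22 and 0.48 with the empty vector. In NCI-H929 this difference of levels was 0.27 and, in the library labelled MM.1S, -0.69 with CTBP2, against 0.13 and -0.18 with the empty vector. The groups were apart in MM.1S and overlapped in NCI-H929, where the CTBP2 libraries also lay farthest from each other. Between libraries of the same line and vector, the pooled SD of this difference of levels was 0.38. After rescaling to equal totals 11 Sm and LSm genes and 3 SR genes fell, and after quantile normalization 8 and 3 did. In 6 libraries, without those at odds with their labels, 11 Sm and LSm genes and 5 SR genes fell. Without MM.1S CTBP2 replicate 1 the Sm and LSm count was 6, and without MM.1S empty vector replicate 2 it was 7.

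Summed over the 15 Sm and LSm genes, FPKM was 961.1 and, in the library labelled NCI-H929, 1223 with CTBP2 in MM.1S, against 1462 and 1766 with the empty vector. In NCI-H929 the sum was 939.8 and, in the library labelled MM.1S, 603.1 with CTBP2, against 1379 and 1131 with the empty vector. Summed SR FPKM was 530.0 and 595.1 with CTBP2 in MM.1S, against 697.8 and 764.9 with the empty vector, and 518.2 and 511.8 with CTBP2 in NCI-H929, against 761.0 and 696.3 with the empty vector. On the deposited scale, where the CTBP2 libraries also had lower total FPKM, both sums were lower with CTBP2 in each line. The sums were not recomputed after rescaling to equal totals. Their ratio was 1.81 and 2.06 with CTBP2 in MM.1S, against 2.10 and 2.31 with the empty vector, whereas in NCI-H929 it was 1.81 and 1.18 with CTBP2, against 1.81 and 1.63 with the empty vector.

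**Figure D3:**
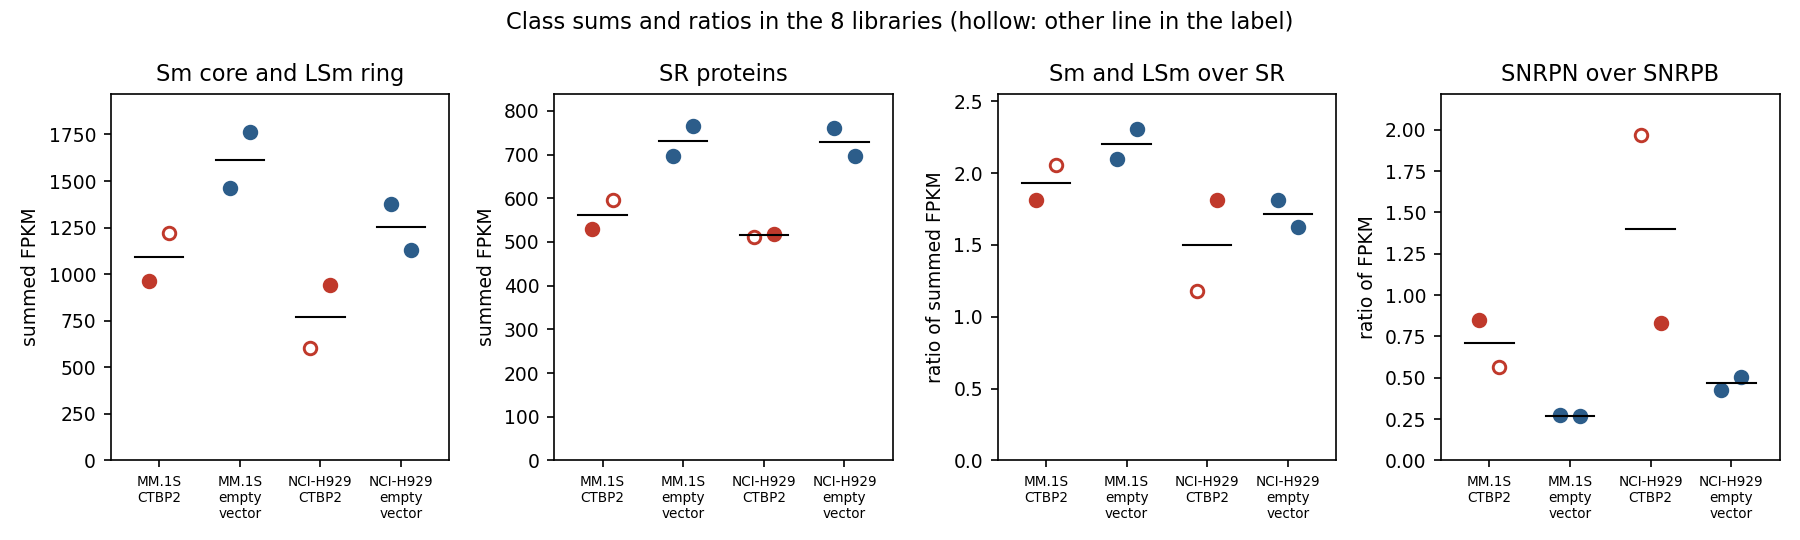
Summed FPKM of Sm and LSm ring genes, summed FPKM of SR genes, their ratio and the ratio of SNRPN to SNRPB (vertical axes, linear, starting at 0) in each library, grouped by line and vector with CTBP2 left of the empty vector, open symbols for the 2 libraries at odds with their line label and a bar at the mean. On the deposited scale, without rescaling, both sums lie lower with CTBP2 in each line. The lowest ratio of the sums, 1.18, is that of replicate 2 labelled MM.1S CTBP2.

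The classes also differ in transcript length, and FPKM is divided by a length. Lengths here are those of the longest matched transcript of a gene in the GENCODE annotation. Those used for the deposited values are not given and may differ. The median length was 1271.5 bases for the 14 Sm and LSm genes with a matched transcript, 2885 bases for the SR genes and 3012 bases for all genes tested. Below 1000 bases 6 of 9 members fell, against 16.5% of all genes, and at 1000 to 2000 bases 6 of 11 did, against 23% of all genes. At 2000 to 4000 bases 12 of 15 members fell, against 19% of all genes, and at 4000 bases or more 3 of 8 did, against 11.2%. The members' median log2 fold changes in these bins were -0.64, -0.58, -0.57 and -0.30, against -0.09, -0.11, 0.01 and 0.13 over all genes. The part of length in the class difference was not tested.

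Within single lines the same direction was measured with fewer calls. In MM.1S only SRSF7 fell (log2 fold change -0.71, SE 0.17, limma adjusted p 0.0483), while 5.47% of all genes were called and 1.8% fell, and 39 of 44 members were negative with a median of -0.44. With 1 block for each replicate number within a line, 24 members fell and 2, SNRPN and SRSF8, rose in MM.1S, against 14.8% and 13.3% of all genes. Without the 2 libraries at odds with their labels 14 fell, against 5.56% of all genes, and leaving out 1 library at a time gave 0 to 5 calls. SRSF7 was not called in MM.1S after quantile normalization or rescaling to equal totals (limma adjusted p 0.0694 and 0.142). Quantile normalization called SNRPN higher in MM.1S instead (limma adjusted p 0.0377).

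In NCI-H929 20 members fell and 0 rose in limma, while 32.9% of all genes were called and 14.6% fell. The members' median was -0.64, and those called were 8 of 15 Sm and LSm genes, 6 of 11 SR genes, 3 of 9 SF3 genes, SNRPA1, LSM10 and LSM12. SRSF2 had a log2 fold change of -1.22 (limma SE 0.20, adjusted p 0.00513), SRSF3 of -1.14 (SE 0.18, adjusted p 0.00431) and SNRPA1 of -1.41 (SE 0.36, adjusted p 0.0210). The SNRPA1 value rests in part on the library labelled MM.1S, at 24.6 FPKM, against 54.0 FPKM in NCI-H929 CTBP2 replicate 1. Without the 2 libraries at odds with their labels its log2 fold change in NCI-H929 was -0.85. With the replicate block 33 members fell, against 23.9% of all genes, and without the 2 libraries at odds with their labels 10 fell, against 6.52%. After rescaling to equal totals 10 fell and 2, SNRPN and SRSF5, rose, against 5.25% and 20.1% of all genes. With 1 library left out, the members lower were 2 without NCI-H929 empty vector replicate 1, 12 without NCI-H929 empty vector replicate 2 and 10 without replicate 2 labelled MM.1S CTBP2, against 2.35%, 9.81% and 7.57% of all genes. Without NCI-H929 CTBP2 replicate 1 the count was 27, against 17.7%. The fit without NCI-H929 CTBP2 replicate 1 leaves replicate 2 labelled MM.1S CTBP2 as the only NCI-H929 CTBP2 library. Its count therefore rests on a library at odds with its label. Each of these leave-out fits leaves a single library in a group, so no conclusion is drawn from their counts. With the lines as labelled, limma called 0 members in NCI-H929 and 0 in MM.1S, where 4 and 26 had an unadjusted p under 0.05.

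Responses were then compared between the lines. The interaction term of limma called 0 of 44 members, against 1.26% of all genes, and 1 member, LSM12, had an unadjusted p under 0.05. LSM12 was more negative in NCI-H929 by -0.51 (SE 0.21, adjusted p 0.306), and SRSF2 by -0.63 (SE 0.29, adjusted p 0.354). Neither difference passed after adjustment over all genes, which does not show that the lines respond alike.

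**Figure D4:**
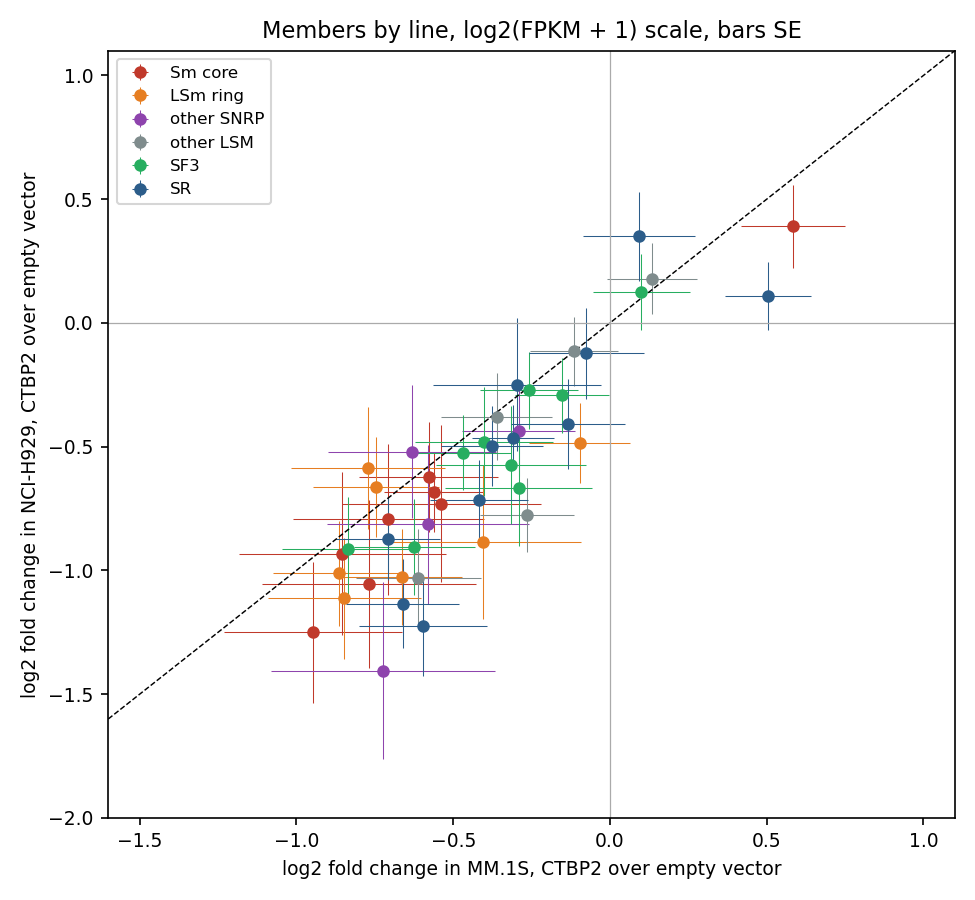
Log2 fold change of CTBP2 over empty vector in NCI-H929 (vertical axis) against that in MM.1S (horizontal axis) for the 44 members, coloured by class, both on the log2(FPKM + 1) scale, with bars for the SE and a dashed line where the lines are equal. Most members lie in the lower left, with SRSF2 at -1.22 in NCI-H929 and -0.60 in MM.1S, and SNRPN lies in the upper right.

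Among the empty vector libraries, the lines differed in 13 members, a smaller share than over all genes tested. Comparing NCI-H929 with MM.1S empty vector libraries, 7 members were higher and 6 lower. Of all genes 50.8% were called, 22.1% higher and 28.7% lower. SF3B5, a small SF3B subunit, was at 233.6 and 180.7 FPKM in NCI-H929, against 54.4 and 73.8 FPKM in MM.1S (log2 difference 1.68, SE 0.24, limma adjusted p 0.000661). SRSF9 (0.94), SRSF8 (0.90), LSM1 (0.77), SF3B4 (0.73), LSM11 (0.62) and LSM10 (0.59) were also higher in NCI-H929. SNRPB2 was at 23.9 and 20.8 FPKM in NCI-H929, against 39.9996 and 51.3 FPKM in MM.1S (-0.99, adjusted p 0.00232 in limma). LSM5 (-0.89), SRSF4 (-0.77), SNRPD3 (-0.57), LSM14A (-0.43) and SRSF10 (-0.38) were lower in NCI-H929 too.

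SF3B5 was at 119.6 FPKM in replicate 2 labelled MM.1S CTBP2 and 56.7 FPKM in replicate 2 labelled NCI-H929 CTBP2. After rescaling to equal totals 4 members were higher and 20 lower in NCI-H929, against 13.5% and 32.5% of all genes, with the median of all genes at -0.32, and LSM10, LSM11 and SF3B4 were no longer called. After quantile normalization 7 were higher and 11 lower, against 24.7% and 25.2% of all genes. Leaving out any 1 empty vector library brought the count of 13 to 7 or 8. With the lines as labelled, where the 2 libraries at odds with their labels add to the shared spread, limma called 0 members, and 4 had an unadjusted p under 0.05.

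Genes that work with the members were read from 8 lists of 123 tested genes. Of these 49 fell and 4 rose, with a median log2 fold change of -0.33. Over all genes tested, the share beside which each list count below is to be read, 16.7% fell and 17.4% rose. In the list of snRNP assembly factors 12 of 16 fell and none rose. GEMIN2, a partner of SMN that holds the Sm ring open, averaged 4.73 ± 1.43 FPKM with CTBP2 and 11.5 ± 3.47 FPKM with the empty vector (SD, n = 4 each), a log2 fold change of -1.12 (limma adjusted p 0.00232). GEMIN6 (-1.09) and GEMIN5 (-0.91), which recognises snRNA, fell as well. With the lines as labelled 4 of these 16 genes were called, and after rescaling to equal totals 6 were.

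Kinases and partners of SR proteins were called in both directions. Of 15 genes 6 fell and 3 rose, against 16.7% and 17.4% of all genes, so the count that rose is near the share over all genes. SRPK1, the cytoplasmic SR kinase, averaged 18.9 ± 4.57 FPKM with CTBP2 and 29.9 ± 2.02 FPKM with the empty vector (SD, n = 4 each), a log2 fold change of -0.66 (limma adjusted p 0.0104). PNN (-0.58) and TRA2B (-0.53), an SR-like splicing regulator, also fell. The 3 that rose, named after their values were seen, were the nuclear SR kinases CLK1 (0.63), CLK4 (0.62) and CLK3 (0.32). CLK1 averaged 39.1 ± 11.6 FPKM with CTBP2 and 24.9 ± 7.53 FPKM with the empty vector (SD, n = 4 each, limma adjusted p 0.0381). None of the 3 was called in limma with the lines as labelled, and CLK1 and CLK3 were not called without the 2 libraries at odds with their labels. CLK3 lost its call whichever library was left out, and CLK4 without MM.1S CTBP2 replicate 1. After rescaling to equal totals no gene of this list fell in limma and 3 rose, against 7.3% and 23.2% of all genes.

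Of 20 hnRNP genes, whose products bind nascent RNA and often oppose SR proteins, 10 fell and none rose. HNRNPAB averaged 104.0 ± 17.9 FPKM with CTBP2 and 229.7 ± 70.2 FPKM with the empty vector (SD, n = 4 each), with a log2 fold change of -1.11. HNRNPD (-0.71) and HNRNPR (-0.54) also fell. The hnRNP counts were 4 lower and 1 higher after rescaling to equal totals, 3 lower and 1 higher after quantile normalization, 6 lower without the 2 libraries at odds with their labels and 1 lower with the lines as labelled. Of 17 U5 and tri-snRNP genes 7 fell, among them PPIH (-0.68), NHP2L1 (-0.66) and SNRNP40 (-0.51). Of 15 genes that recruit U1 and U2 6 fell, with DHX15 at -0.70, U2SURP at -0.56 and DDX46 at -0.54. After rescaling to equal totals 2 genes fell in each of these lists.

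Of 22 genes of the Prp19 complex and late steps 3 fell, where 16.7% of all genes did, namely PPIL1 (-0.94), PRPF19 (-0.46) and CDC5L (-0.36). Of 9 exon junction genes 3 fell, namely EIF4A3 (-0.85), the helicase anchor of the complex, MAGOHB (-0.64) and UPF3B (-0.49). In the minor spliceosome list PDCD7 (-0.45) and SCNM1 (-0.46) fell and ZMAT5 (0.63) rose, of 9 genes. Over all 8 lists 6 genes fell and 0 rose in limma with the lines as labelled, where 1.81% of all genes fell. Without the 2 libraries at odds with their labels 36 fell and 2 rose, against 13% and 11.5% of all genes. After rescaling to equal totals 16 fell and 6 rose, against 7.3% and 23.2% of all genes.

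Promoter sequence was examined for motifs shared by the members. RefSeq (GRCh38.p14) gave a window of 250 bases before to 50 after the start for 38 of 44 members. The letters CCGGAAG, an ETS-type motif, occurred on either strand in 16 of 38 windows (42.1%), against 20% of 10036 windows of tested genes. By class it was in 4 of 7 Sm, 3 of 4 other SNRP, 6 of 8 SF3, 1 of 5 LSm ring, 0 of 4 other LSM and 2 of 10 SR windows. The E-box CACGTG, a MYC-type motif, occurred in 1 of 38 (SF3B1), against 10.6% of windows of tested genes. Promoter stretches free of annotated exons are shown for an Sm gene and a U2 gene that hold the motif and fell, and for an SR gene that fell and does not hold it, with CTTCCGG, its letters on the printed strand, in capitals. They lie at chr2:70293459-70293617 (minus strand), chr15:101295283-101295418 (minus strand) and chr6:36594112-36594352 (plus strand).
SNRPG: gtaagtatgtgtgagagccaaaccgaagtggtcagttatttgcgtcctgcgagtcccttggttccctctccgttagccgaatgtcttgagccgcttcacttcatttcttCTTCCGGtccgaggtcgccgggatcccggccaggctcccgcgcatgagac
SNRPA1: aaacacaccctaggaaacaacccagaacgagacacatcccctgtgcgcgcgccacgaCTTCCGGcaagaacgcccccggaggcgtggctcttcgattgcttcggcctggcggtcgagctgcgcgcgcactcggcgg
SRSF3: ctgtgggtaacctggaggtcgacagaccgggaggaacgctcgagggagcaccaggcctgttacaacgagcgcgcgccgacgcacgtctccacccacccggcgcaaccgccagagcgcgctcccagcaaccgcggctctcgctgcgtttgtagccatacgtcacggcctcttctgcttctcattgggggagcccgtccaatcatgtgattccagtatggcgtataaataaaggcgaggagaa
A match is a description of letters, and none of these libraries measured binding. Genes that fell were found with and without the motif.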

How the data were processed

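TruSeq libraries were made from RNA of 8 cultures, per the labels. For reads, the submitters' processing notes list STAR 2.6.0b-1 and the build GRCh37 (hg19), beside Trimmomatic 0.36.5, FastQC 0.11.7, DESeq2 2.11.40.2 and HTSeq 0.9.1, without settings. The authors deposited FPKM values. Not given in the sources used here: the tool that made them, its annotation and the use of strand. Each value is scaled by length of transcript and by the library's total, so a few abundant features can shift the rest. The microRNA gene MIR6723 took 2.86 to 16.3% of summed FPKM. Because FPKM is divided by length, this is not its share of fragments. Steps between the low values put the depth at 16000000 to 21000000 fragments, with 57.7 to 67.7% of values whole within 0.1 fragment, so no counts were recovered.

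Genes at 1 FPKM or more in at least 2 libraries were tested on log2(FPKM + 1), computed from the deposited values, so folds of low genes are understated. The tests were limma 3.58.1 in R 4.3.3 with a mean-variance trend and Benjamini-Hochberg adjustment over all 12583 genes, at a threshold of 0.05. Both lines together used line and vector. Comparisons within a line, between lines and at baseline used 1 mean per line and vector over all 8 libraries. The fits were tested on simulated data. Genes were named by class and, in the other lists, by the 3 smallest p values among those called. Members and lists were chosen with earlier results of these data known.

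The line of 2 libraries was read from CCND2 and FGFR3. Deviations of same-numbered libraries from their group means correlated at 0.44 in MM.1S and 0.45 in NCI-H929 with the line read this way. With the lines as labelled the correlations were 0.01 and 0.11. Each labelled CTBP2 group then mixes both lines, so its deviations hold the difference between lines and these low values cannot decide on the pairing. The replicate numbers come from the labels, which do not state that same-numbered libraries are pairs. With 2 libraries per group each line gives a single correlation, so 0.44 and 0.45 cannot show pairing either. Alternatives were a pseudocount of 0.1, no filter, median of ratios, quantile normalization, equal totals without 2044 genes (immunoglobulin, microRNA and snoRNA genes and CTBP2), lines as labelled, 6 libraries, a replicate block and leaving out each library.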

Additional observations from a re-analysis of the deposited data

How the results depend on the processing

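Of the members called over both lines, 28 on the deposited scale, 17 were called without a filter on low values, 3 with the lines as labelled and 14 to 32 when 1 library was left out, with 14 without MM.1S CTBP2 replicate 1 and 18 without NCI-H929 empty vector replicate 1. The replicate block gave 34. In MM.1S the count of 1 became 0 in limma with a pseudocount of 0.1, without a filter, with median of ratios and with equal totals. It was also 0 with the lines as labelled. Fits with 6 libraries or without an MM.1S library leave a single library in a group, so no count is given for them. The count was 26 with the replicate block, 0 without NCI-H929 empty vector replicate 1 and 5 without replicate 2 labelled MM.1S CTBP2. With quantile normalization it stayed at 1, but the member was SNRPN, called higher (limma adjusted p 0.0377), and SRSF7 was not called (0.0694). For NCI-H929, fits with 6 libraries or without an NCI-H929 library also leave a single library in a group. No conclusion is drawn from those counts, given next. The largest of them rests on replicate 2 labelled MM.1S CTBP2 as the only NCI-H929 CTBP2 library. In NCI-H929 the count of 20 became 9 without a filter, 12 with equal totals (10 lower, 2 higher), 0 with the lines as labelled, 10 with 6 libraries, 33 with the replicate block, and 2 to 27 with 1 library left out. The difference between lines gave 0 members under each setting, the block included (0 to 0 with 1 library left out). The baseline count of 13 became 24 with equal totals, 0 with the lines as labelled and 7 to 16 with 1 library left out, and it could not be fitted with the replicate block because blocks lie within a line. The 12 Sm and LSm genes called lower became 6 without a filter, 0 with the lines as labelled and 6 to 13 with 1 library left out. The 6 SR genes became 3 with quantile normalization, 3 with equal totals, 0 with the lines as labelled and 4 to 7 with 1 library left out. The difference of the 2 class medians ranged over -0.41 to -0.21 with 1 library left out.

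Signs turned for 4 members that had not passed, namely LSM14A (0.059 with quantile normalization, 0.14 with equal totals), SF3B14 (0.012 with quantile normalization), SF3A1 (0.035 with equal totals) and SRSF6 (0.14 with quantile normalization, 0.16 with equal totals). Of the values of single genes under the alternatives, 1261 kept their direction and side of the threshold, 373 lost the call, 27 gained it and 6 turned sign. The cause of these changes was not tested. With 2 libraries per line and vector and an estimated depth only, small fold changes are not detectable, and the p-values rest on the line read from expression.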
